A study of Mus musculus with 9 samples.

Results

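The heat shock proteins, J-domain proteins and chaperonins, which together make up most of the molecular chaperones of a mouse cell, were taken by symbol from the count table. They were the Hspa, Hspb, Hspd, Hspe, Hsph and Hsp90 genes, the numbered Dnaja, Dnajb and Dnajc genes, and Tcp1 with the Cct genes of the cytosolic chaperonin. This gave 79 of 24444 gene symbols. By role there were 3 HSP90 genes, 8 cytosolic HSP70 and HSP110 genes, 1 HSP70 of the ER, 3 mitochondrial chaperones, 4 atypical HSP70 genes, 8 small heat shock genes, 4, 13 and 25 J-domain genes of the A, B and C series, and 10 chaperonin genes. A low-count filter kept 74 of them among 15171 genes.

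Molecular chaperones are proteins that help other proteins fold, unfold, assemble or reach their compartment. HSP70 proteins bind exposed stretches of an unfolded client and release them in a cycle driven by ATP. J-domain proteins bring clients to HSP70 and start its ATP hydrolysis, and HSP110 proteins help it release the nucleotide. HSP90 acts later on kinases, steroid receptors and other signalling clients, small heat shock proteins hold unfolded proteins without ATP, and chaperonins enclose a client in a ring. Many of these genes are made at all times in growing cells, some answer heat or misfolded protein through HSF1 or the unfolded protein response of the endoplasmic reticulum (ER), and several J-domain proteins serve synapses in neurons.

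RNA-seq counts per gene were available for 3 groups of 3 mouse libraries. MycT58A tumours came from cells of Blbp-Cre mice with the alleles Ctnnb1Ex3flx/flx (an activating change of beta-catenin once recombined), Trp53flx/flx and Pik3caE545K +/flx, to which MycT58A, a stabilised form of Myc, had been added, and EV tumours came from cells of the same genotype with EV in its place. The tumour cells were implanted orthotopically in CD1-nude mice, which lack T cells, and GFP-positive regions were microdissected, so host vessels, connective tissue and immune cells can be part of a piece. Control was normal cerebellum of CD1-nude mice without implanted cells and without the engineered alleles, so the comparison of EV with control holds the alleles, the transplanted cells and the tissue together. The labels give no ages, and do not say whether the libraries of a group came from separate animals or cultures, so a p-value here speaks only of how far these libraries scatter, which may be in part technical.

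The libraries held 16631523 to 30410089 counts. Myc had 918, 859 and 727 CPM in the MycT58A libraries, 360.0, 19.9 and 762 CPM in the EV libraries and 0.94, 1.59 and 32 CPM in the control libraries, so EV replicate 3 lay within the MycT58A range and EV replicate 2 far below it. Control replicate 3 stood far above the other controls in Myc. Its proliferation genes, summed below, were at 92.2 CPM, beside 61.5 and 59.1 CPM in control replicates 1 and 2. The controls carried the granule cell and Purkinje markers of cerebellum, while a protocol label speaks of cortex. The 4 forebrain cortex markers summed to 5.47 to 6.03 CPM in MycT58A, 1.66 to 12.6 CPM in EV and 3.68 to 6.02 CPM in control, with Emx1 at 0 in every library, and the 4 granule neuron markers to 43.9 to 81.5 CPM in MycT58A, 5.65 to 26.9 CPM in EV and 2376 to 3341 CPM in control. Summed levels of 3 neuron markers were 35.8 to 69.4 CPM in MycT58A, 11.6 to 40.5 CPM in EV and 4062 to 5488 CPM in control. For 7 proliferation genes they were 2189 to 2525 CPM in MycT58A, 484 to 1423 CPM in EV and 59.1 to 92.2 CPM in control. Both sums moved with tumour against control, and their part in the chaperone differences was not tested. In bulk tissue, fewer cells of a type and less RNA per cell cannot be told apart.

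The chaperone genes as a whole took a larger share of the MycT58A libraries than of the control libraries. They held 2.79, 2.57 and 2.89% of all counts in MycT58A, 2.41, 1.51 and 2.93% in EV and 1.54, 1.32 and 1.65% in control, and the share of EV replicate 2 fell inside the control range. Levels are given as CPM, counts scaled to the TMM-adjusted library size, and were compared with edgeR's quasi-likelihood test at a Benjamini-Hochberg adjusted p under 0.05 over all genes tested. In MycT58A against control, 26 members were higher and 20 lower, or 62.2% of those tested, beside 62.2% of all genes (31.2% higher and 31% lower). In EV against control, 24 were higher and 17 lower, or 55.4%, beside 57% of all genes (30.7% higher and 26.3% lower). In MycT58A against EV, none was higher and 6 were lower, or 8.11%, beside 8.3% of all genes (3.28% higher and 5.02% lower). In that last comparison 8 were higher and 17 lower at an unadjusted p under 0.05. The share of all genes at an unadjusted p was not counted, so such counts, here and below, have no background. At an adjusted p under 0.05, 4 were higher by DESeq2 and 1 by limma-voom, which called 22.7% and 9.97% of all genes in either direction. The libraries of MycT58A and control did not overlap for 35 members that were higher and 26 that were lower in MycT58A (all genes 41% and 41.5%), and those of EV and control for 19 and 20 (all genes 30.3% and 32.2%).

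The share of members called was near the background in all 3 comparisons, and the members are described below by role. The median log2 fold change of the members was 0.26 in MycT58A against control, 0.37 in EV against control and 0.07 in MycT58A against EV, and over all genes it was -0.03, 0.14 and -0.04. The 2 comparisons with control share the control libraries, so for each member the values of both are given side by side and their likeness is no result.

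**Figure D1:**
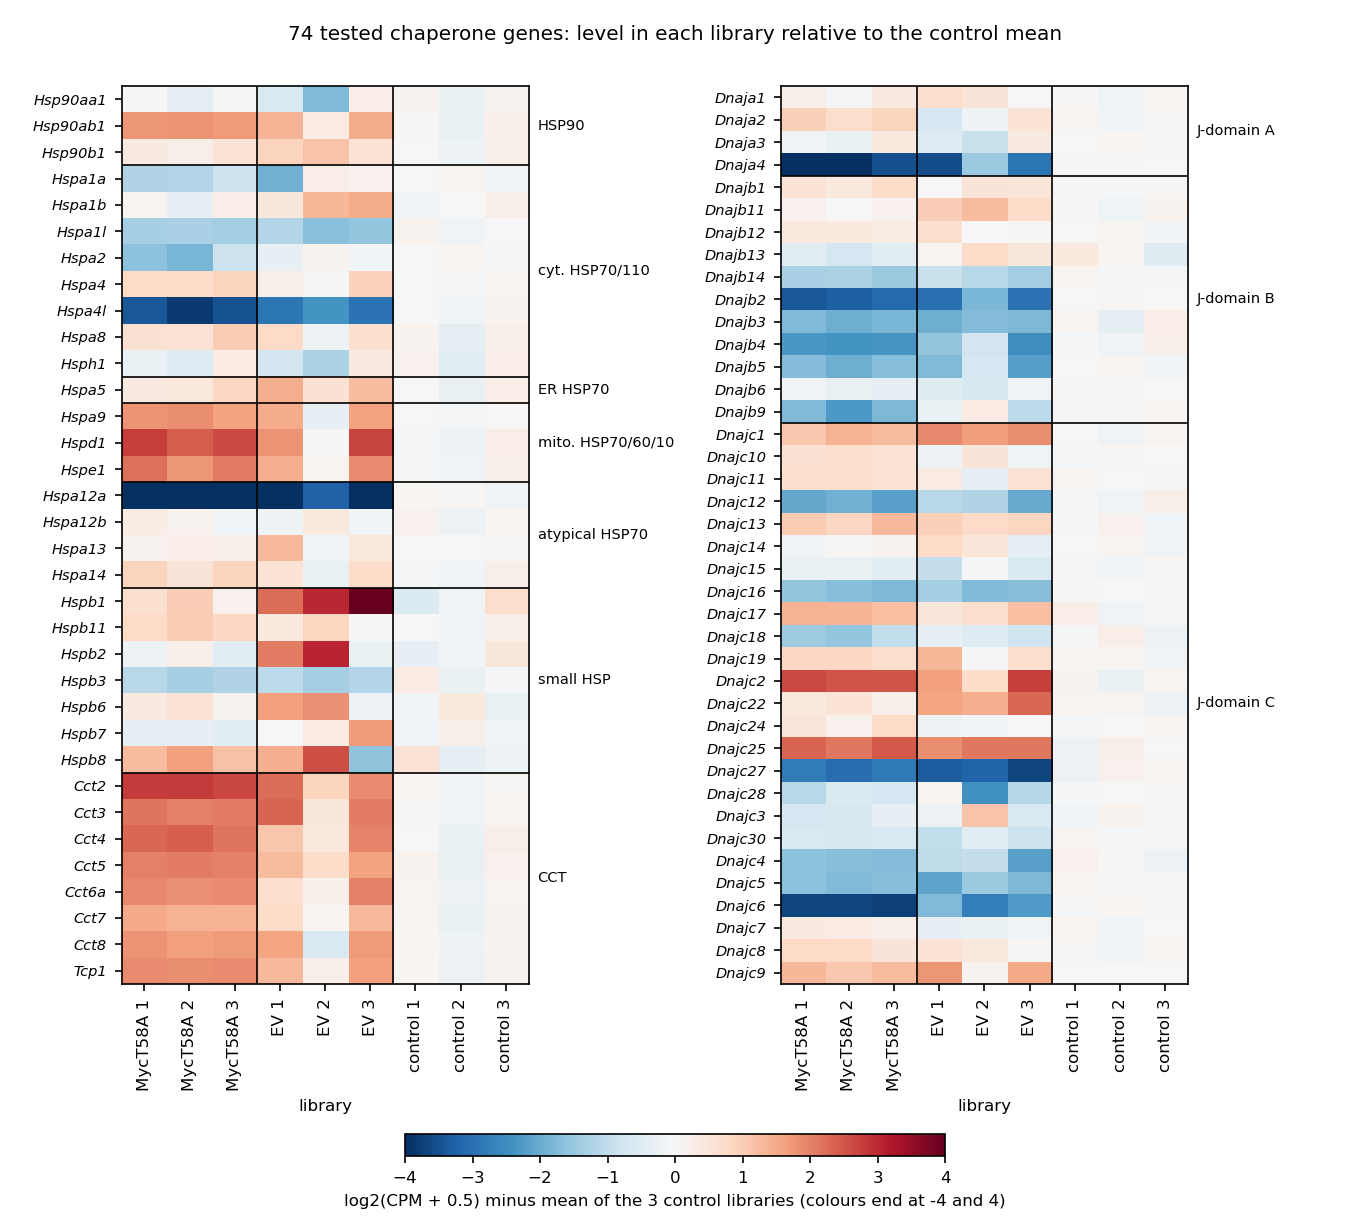
Level of each of the 74 tested chaperone genes in each library, as log2(CPM + 0.5) minus the mean of the 3 control libraries, with libraries on the x axis, genes by role on the y axis, and colours from -4 (blue) to 4 (red). The CCT block is red in all MycT58A libraries and paler in EV replicate 2, and the J-domain columns mix red and blue rows.

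The cytosolic chaperonin CCT, also called TRiC, is a barrel of stacked rings of related subunits that folds tubulin and actin. Its ring subunits did not all move to the same degree. Relative to the control mean, they ranged from 2.82 (Cct7) to 6.97 times (Cct2) in MycT58A replicate 1. In EV replicate 2 they ranged from 0.644 (Cct8) to 1.85 times (Cct2). All 8 ring subunits were called higher in MycT58A than in control, with a median log2 fold change of 1.95. In EV, 6 of 8 were called higher than in control, and the median was 1.22. Of all genes, 31.2% were called higher in MycT58A and 30.7% in EV. With control replicate 2 left out, 3 of 8 were called in EV, in a fit that called 44.9% of all genes. In MycT58A, 7 of 8 were called without control replicate 1 or 2, in fits that called 51.9% and 52.2% of all genes. The sum of the 8 subunits was 7133, 6965 and 6759 CPM in MycT58A, 4764, 2176 and 5857 CPM in EV and 1831, 1475 and 1898 CPM in control. The 3 groups did not overlap in this sum, and EV replicate 2 was close to the highest control.

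Cct2 (beta subunit) was the subunit with the highest level and the largest rise in MycT58A. It had 1294, 1302 and 1182 CPM in the MycT58A libraries, 869, 344 and 687 CPM in the EV libraries and 194, 170.0 and 193 CPM in the control libraries. No 2 groups overlapped. By edgeR, the log2 fold change was 2.76 ± 0.33, adjusted p = 0.000193 in MycT58A against control, 1.77 ± 0.32, adjusted p = 0.00178 in EV against control, and 0.99 ± 0.31, adjusted p = 0.0772 in MycT58A against EV. The last did not pass.

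Cct3 (gamma subunit) had the largest rise in EV. It had 770.0, 709 and 715 CPM in the MycT58A libraries, 877, 237 and 725 CPM in the EV libraries and 181, 157 and 185 CPM in the control libraries, and EV replicates 1 and 2 lay on either side of all MycT58A libraries. The rises on the log2 scale were 2.07 ± 0.42, adjusted p = 0.00271 in MycT58A against control and 1.82 ± 0.41, adjusted p = 0.00593 in EV against control. Cct7 (eta subunit) rose least in MycT58A, by 1.42 ± 0.30 on the log2 scale (adjusted p = 0.00359), from levels of 736, 679 and 675 CPM in MycT58A, 427, 273 and 643 CPM in EV and 280.2, 216 and 286 CPM in control.

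The other subunits, Tcp1 (alpha), Cct4, Cct5, Cct6a and Cct8, rose by 1.72 to 2.27 on the log2 scale in MycT58A against control. In EV against control, Cct7 and Cct8 did not pass, with log2 fold changes of 0.78 ± 0.30, adjusted p = 0.0513 and 1.20 ± 0.50, adjusted p = 0.0674. Cct8 had 709, 155 and 787 CPM in the EV libraries, so that EV replicate 2 lay below the control range of 251, 206 and 264 CPM. The log2 fold change of Cct6a in EV was 1.17, and 0.48 without EV replicate 3. Its call held in 8 of 17 alternatives and was also lost without any 1 of the control or MycT58A libraries. The calls of Tcp1 and Cct4 in EV were lost without control replicate 2, and that of Cct8 in MycT58A without control replicate 1 or 2.

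Between the tumour groups, every ring subunit had a positive log2 fold change, with a median of 0.71, and none passed. For 5 of 8 subunits (Cct2, Cct4, Cct5, Cct7 and Tcp1) the MycT58A libraries all lay above the EV libraries, as 18.2% of all genes did. Of the 8, 3 passed at an unadjusted p under 0.05, and 2 by DESeq2 and 0 by limma-voom at an adjusted one. Without EV replicate 3, whose Myc level matched MycT58A, 4 of 8 were called and the median was 1.01, in a fit that called 25.7% of all genes. Relative to the control mean, the median subunit stood at 3.88, 3.84 and 3.84 times in MycT58A and at 2.41, 1.25 and 3.49 times in EV. Among the EV libraries, replicate 2 was the lowest and replicate 3 the highest both here and in Myc, which 3 libraries cannot test. The testis-type paralogues Cct6b and Cct8l1 were at or near 0, with 7, 13 and 3 counts of Cct6b in all of MycT58A, EV and control and no count of Cct8l1.

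**Figure D2:**
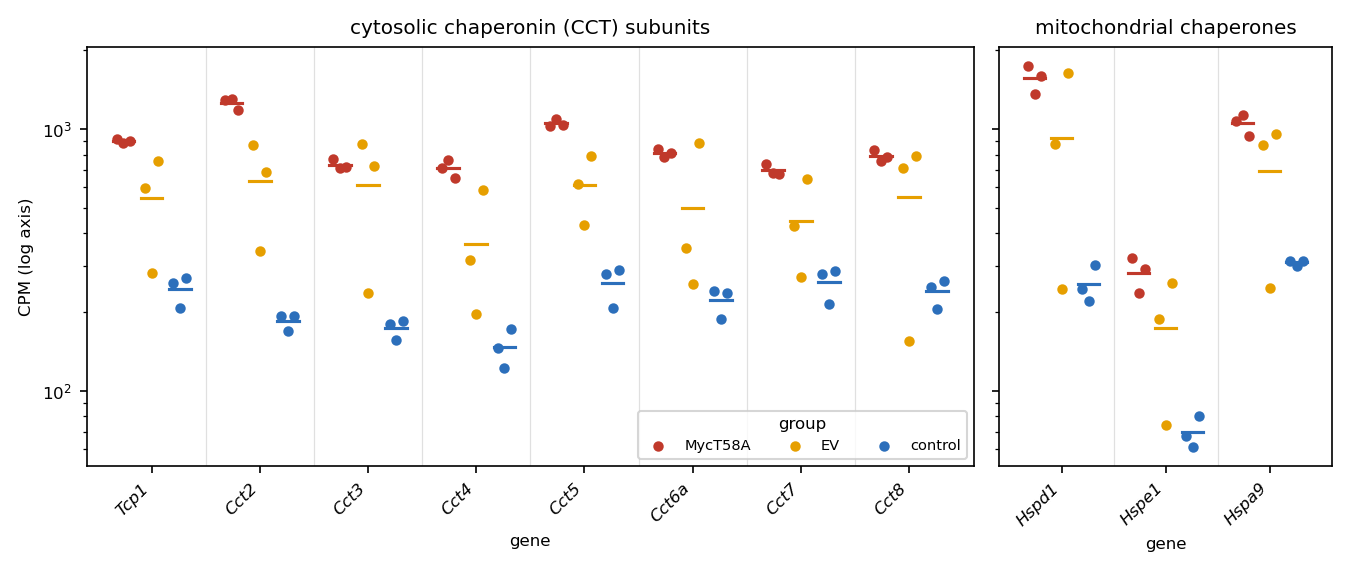
CPM of the 8 CCT ring subunits (left) and the 3 mitochondrial chaperones (right) on a log axis, 1 point for each of 3 libraries in MycT58A (red), EV (orange) and control (blue), with a bar at the group mean. MycT58A points lie close together and above control for each gene, while the EV points are spread more widely, with replicate 2 the lowest for each gene.

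All 3 mitochondrial chaperones were also called higher than in control in MycT58A and in EV, as were 31.2% and 30.7% of all genes. Hspd1 encodes HSP60, the chaperonin ring of the mitochondrial matrix, Hspe1 encodes HSP10, its lid, and Hspa9 encodes mortalin, the HSP70 that also pulls proteins in through the inner membrane. Hspd1 and Hspe1 lie head to head on chromosome 1, Hspd1 at chr1:55077835-55088243 on the minus strand and Hspe1 at chr1:55088132-55091307 on the plus strand (mm10, GENCODE vM21). A stretch upstream of a RefSeq start of each gene is shown in both orientations (chr1:55088038-55088097, RefSeq, GRCm38.p6). The stretch holds a heat shock element, the motif bound by HSF1, in capitals. It is the same site read on the plus strand for Hspe1 and on the minus strand for Hspd1, and it lies within the longer GENCODE span of Hspd1.
Hspe1: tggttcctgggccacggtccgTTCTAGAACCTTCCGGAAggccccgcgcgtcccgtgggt
Hspd1: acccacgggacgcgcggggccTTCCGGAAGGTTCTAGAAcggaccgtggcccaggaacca

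The element searched was 3 alternating blocks of GAA and its reverse complement TTC, starting with either, with any 2 bases between neighbouring blocks, from 250 bases before to 50 bases after a gene's start. Of the 65 members with such a window, 4 held it (6.15%: Hspd1, Hspe1, Hsph1 and Dnajb6), beside 0.662% of 27025 genes. The other members, among them Hsp90aa1, Hsp90ab1 and Hspa9, had no window and were not searched for any motif. The E-box CACGTG, the motif bound by MYC with MAX, was in the windows of 6 of 65 members (9.23%), beside 8.09% of all genes. These were Dnajb9, Dnajc1, Dnajc8, Dnajc16, Hspd1 and Hsph1, and none of the 9 CCT genes with a window held it. In Hspd1 the E-box lay in another window, at -80 to -75 bases from the RefSeq start of that window. A match is only a run of letters, and binding was not measured.

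Hspd1 had 1742, 1366 and 1591 CPM in the MycT58A libraries, 879.6, 245 and 1646 CPM in the EV libraries and 245, 221 and 303 CPM in the control libraries. MycT58A and control did not overlap, and EV spanned the distance between them, with replicate 2 inside the control range and replicate 3 inside the MycT58A range. For HSP60 the log2 fold change was 2.61 ± 0.58, adjusted p = 0.00422 in MycT58A against control, 1.85 ± 0.56, adjusted p = 0.0209 in EV against control, and 0.76 ± 0.55, adjusted p = 0.366 in MycT58A against EV. Without EV replicate 3 the difference of EV from control was 1.17 on the log2 scale and did not pass, and the call was also lost without control replicate 1 or 2.

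Hspe1 had 321, 238 and 292 CPM in MycT58A, 189, 74.5 and 259 CPM in EV and 67.4, 61.1 and 80.5 CPM in control. Hspa9 had 1079, 1137 and 945 CPM in MycT58A, 868, 247 and 956 CPM in EV and 314, 300.2 and 315 CPM in control. Both were higher in MycT58A than in control, by 2.02 ± 0.40 and 1.77 ± 0.44 on the log2 scale (adjusted p = 0.00256 and 0.00727), and in EV than in control, by 1.32 ± 0.40 and 1.16 ± 0.43 (adjusted p = 0.02 and 0.0457). EV replicate 2 was below the control range for Hspa9 and inside it for Hspd1 and Hspe1. The call of Hspe1 in EV was lost without control replicate 1 or 2 or EV replicate 3, and that of Hspa9 in EV when any library but EV replicate 2 was left out. Of all stretches of 50 bases in the exons, 42.1% of those of Hspd1 and 22.8% of those of Hspe1 also occur in another annotated gene, and the annotated pair overlaps at the start, so some reads may have been assigned to a copy or to the partner.

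Of the cytosolic HSP90 genes, the constitutive Hsp90ab1 was higher in both tumour groups. It had 6767, 6901 and 6536 CPM in the MycT58A libraries, 5138, 2531 and 5621 CPM in the EV libraries and 2071, 1670.0 and 2303 CPM in the control libraries. All MycT58A and EV libraries were above all control libraries. Its log2 fold change was 1.74 ± 0.32, adjusted p = 0.00176 in MycT58A against control, 1.14 ± 0.32, adjusted p = 0.015 in EV against control, and 0.60 ± 0.32, adjusted p = 0.225 in MycT58A against EV. The call in EV was lost without control replicate 2. Hsp90aa1, the form that heat induces, had 2069, 1570.5 and 1902 CPM in MycT58A, 1327, 592 and 2416 CPM in EV and 2209.8, 1665 and 2184 CPM in control, and its log2 fold changes were -0.13 ± 0.44, adjusted p = 0.812 in MycT58A and -0.48 ± 0.44, adjusted p = 0.367 in EV against control.

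Per length, the level of Hsp90ab1 over that of Hsp90aa1 in RPKM (CPM per kilobase of exon) was 4.29, 5.76 and 4.50 in MycT58A, 5.08, 5.61 and 3.05 in EV and 1.23, 1.31 and 1.38 in control. Each tumour group lay apart from control (exact permutation test on the log ratio, two-sided, p = 0.1 for each, the smallest that 3 against 3 allow). MycT58A and EV overlapped (p = 0.8 in the same exact test). Copies elsewhere in the genome share 47.5% of the 50-base stretches of Hsp90aa1, which leaves its level less certain than that of Hsp90ab1.

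Among cytosolic HSP70 genes, Hspa8, the constitutive HSC70 that serves most folding in the cytosol, had the highest level. It had 4737, 4709 and 6379 CPM in the MycT58A libraries, 5403, 2707 and 4864 CPM in the EV libraries and 3458, 2458 and 3637 CPM in the control libraries. Its log2 fold changes were 0.73 ± 0.32, adjusted p = 0.0736 in MycT58A and 0.44 ± 0.32, adjusted p = 0.257 in EV against control, so neither passed, though the MycT58A libraries all lay above control. Pseudogenes share 39.4% of its 50-base stretches. The classical stress-induced pair, Hspa1a and Hspa1b, stayed low in every library: per length, Hspa1b averaged 0.819 ± 0.202 RPKM in MycT58A, 1.98 ± 0.739 RPKM in EV and 0.793 ± 0.132 RPKM in control (SD, n = 3), against 1226 ± 222, 1006 ± 332 and 740.3 ± 148 RPKM of Hspa8 in the same groups.

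Hspa1b had 2.45, 1.67 and 2.77 CPM in MycT58A, 3.22, 6.33 and 7.14 CPM in EV and 1.88, 2.17 and 2.61 CPM in control, with all EV libraries above all others. It was higher in EV than in control by 1.32 ± 0.41 on the log2 scale (adjusted p = 0.0232), a call lost without control replicate 1 or 2, and Hspa1a was not called. The pair is near-identical and shares 66.3% of the 50-base stretches of Hspa1a and 62.3% of those of Hspa1b. The split of reads between them is therefore uncertain. So is the low level of each, since the treatment of shared reads by the counter is not known. Hspa1l, the neighbouring testis-type gene, was lower in both tumour groups (log2 fold change -1.53 in MycT58A and -1.66 in EV), with 71.4% of its stretches shared.

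The HSP110 genes parted. Hspa4l, a form known from testis and brain, had 23.7, 17.2 and 22.2 CPM in the MycT58A libraries, 33.8, 48.1 and 32.5 CPM in the EV libraries and 256, 226 and 282 CPM in the control libraries, so each group lay apart from the other. On the log2 scale the change was -3.60 ± 0.24, adjusted p = 2.25e-05 in MycT58A against control, -2.74 ± 0.23, adjusted p = 4.96e-05 in EV against control, and -0.86 ± 0.22, adjusted p = 0.0463 in MycT58A against EV. Hspa4, its widely expressed paralogue, had 532, 519.6 and 559 CPM in MycT58A, 353, 291 and 576 CPM in EV and 298, 289 and 327 CPM in control and was higher in MycT58A than in control by 0.82 ± 0.26 on the log2 scale (adjusted p = 0.0216). The call was lost without any of the controls or without MycT58A replicate 1 or 3. In EV it did not pass (0.42 ± 0.25, adjusted p = 0.19).

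Per length, the ratio of Hspa4 to Hspa4l was 47.9, 64.4 and 53.7 in MycT58A, 22.3, 12.9 and 37.7 in EV and 2.49, 2.73 and 2.47 in control. No 2 groups overlapped, and each of the 3 pairs gave p = 0.1 in the exact two-sided permutation test, the smallest it can give. The third HSP110 gene, Hsph1, which heat induces, did not pass in any comparison and had 203, 168 and 302 CPM in MycT58A, 143, 100.2 and 311 CPM in EV and 275, 179 and 289 CPM in control. Hspa2, an HSP70 best known from male germ cells and also made in brain, had 5.76, 5.07 and 10.3 CPM in the MycT58A libraries, 15.3, 21.2 and 17.9 CPM in the EV libraries and 19.2, 20.2 and 18.2 CPM in the control libraries. All MycT58A libraries were below all others, with a log2 fold change of -1.37 ± 0.31, adjusted p = 0.0371 against EV and -1.45 ± 0.31, adjusted p = 0.0037 against control, while EV and control overlapped.

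**Figure D3:**
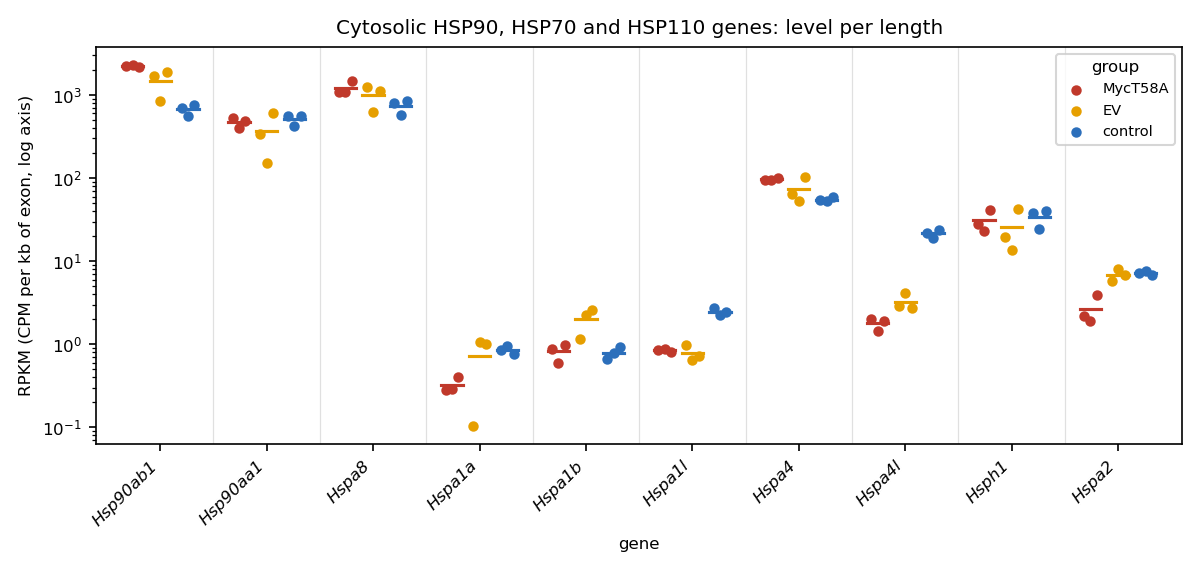
RPKM (CPM per kilobase of exon, log axis) of the cytosolic HSP90, HSP70 and HSP110 genes, 1 point for each of 3 libraries in MycT58A (red), EV (orange) and control (blue), with a bar at the group mean. Hsp90ab1 lies above Hsp90aa1 in tumours and near it in control, Hspa4l is lower in tumours, and Hspa1a and Hspa1b lie far below Hspa8 in every group.

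Among the ER chaperones, Hspa5, Hsp90b1 and Dnajb11 were higher in EV than in control. Hspa5 encodes BiP, the HSP70 of the ER, Hsp90b1 encodes GRP94, its HSP90, and Dnajb11 (ERdj3), Dnajb9 (ERdj4) and Dnajc3 (p58IPK) are J-domain partners of BiP. The unfolded protein response raises several of them through the ER stress element, and the promoter stretches of members that hold it are shown with the element in capitals (RefSeq, GRCm38.p6): Hspa5 at chr2:34771990-34772089 on the plus strand, Hsp90b1 at chr10:86705524-86705664 on the minus strand with 2 elements in opposite directions, and Dnajc3 at chr14:118937812-118937862 on the plus strand.
Hspa5: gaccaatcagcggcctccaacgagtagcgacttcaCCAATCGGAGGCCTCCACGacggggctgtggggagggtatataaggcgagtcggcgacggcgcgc
Hsp90b1: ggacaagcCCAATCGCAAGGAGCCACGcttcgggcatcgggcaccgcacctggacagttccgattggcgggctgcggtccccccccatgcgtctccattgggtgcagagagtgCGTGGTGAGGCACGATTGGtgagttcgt
Dnajc3: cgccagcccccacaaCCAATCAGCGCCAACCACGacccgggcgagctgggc

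The element, CCAAT and CCACG with any 9 bases between them, or its reverse complement, CGTGG and ATTGG with 9 between, was in the windows of these 3 of 65 members (4.62%) and of 37 of 27025 genes (0.137%). Hspa5 had 672, 705 and 938 CPM in the MycT58A libraries, 1434, 808 and 1225 CPM in the EV libraries and 532, 429 and 637 CPM in the control libraries, with the lowest EV library above the highest control. It was higher in EV than in control by 1.12 ± 0.28 on the log2 scale (adjusted p = 0.0086), and the difference of MycT58A from control did not pass (0.54 ± 0.27, adjusted p = 0.119), though these groups did not overlap. For Hspa5 the tumour groups overlapped, and MycT58A against EV did not pass by edgeR (log2 fold change -0.58, adjusted p = 0.185).

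Hsp90b1 had 762, 689.9 and 868 CPM in MycT58A, 1094, 1295 and 887 CPM in EV and 579.6, 508 and 692 CPM in control, and was higher in EV than in control by 0.88 ± 0.22 on the log2 scale (adjusted p = 0.00911). By edgeR, its MycT58A level passed neither against control (0.38, adjusted p = 0.157) nor against EV (-0.50, adjusted p = 0.162). Dnajb11 had 80.5, 72.2 and 81.2 CPM in the MycT58A libraries, 141, 172 and 118 CPM in the EV libraries and 73.9, 62.8 and 78.3 CPM in the control libraries. All EV libraries were above all others, and MycT58A and control overlapped. It was higher in EV than in control (mean CPM 143 ± 26.9 and 71.7 ± 7.96, SD, n = 3, edgeR adjusted p = 0.0022) and lower in MycT58A than in EV (log2 fold change -0.88 ± 0.19, adjusted p = 0.0304), while MycT58A and control did not differ past the threshold (0.12 ± 0.18, adjusted p = 0.588).

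Dnajb9 had another order. It had 14.1, 9.51 and 13.6 CPM in the MycT58A libraries, 40.1, 60.7 and 23.2 CPM in the EV libraries and 47.1, 46.1 and 53 CPM in the control libraries, with the MycT58A libraries below all others and EV overlapping control. Its log2 fold change was -1.74 ± 0.34, adjusted p = 0.0252 in MycT58A against EV and -1.97 ± 0.35, adjusted p = 0.0013 in MycT58A against control. Dnajc3, whose promoter carries the same element as that of Hspa5, passed in no comparison, and had 48.1, 49.4 and 60.5 CPM in MycT58A, 64.8, 170.5 and 50.3 CPM in EV and 71.9, 85.2 and 74.3 CPM in control, with EV replicate 2 above every other library. Dnajc10 (ERdj5), a J-domain protein with disulphide reductase activity, was higher in MycT58A than in control by 0.61 ± 0.22 on the log2 scale (adjusted p = 0.0369), a call lost when any control or MycT58A library was left out.

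The J-domain genes split between rises and falls. Of 40 tested, 11 were higher and 15 lower in MycT58A against control, beside 31.2% and 31% of all genes. In EV against control 8 were higher and 13 lower, beside 30.7% and 26.3% of all genes. Members of the A and B series resemble the general bacterial DnaJ in layout, and those of the C series share only the J domain. In the B series the median log2 fold change was -1.40 in MycT58A and -0.42 in EV against control, and in the C series it was 0.31 and 0.09.

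Dnajc6 and Dnajc27 fell furthest in the C series. Dnajc6 encodes auxilin, which with HSC70 strips clathrin from vesicles at synapses. It had 17.5, 17.4 and 16.5 CPM in the MycT58A libraries, 66.2, 33.7 and 46.6 CPM in the EV libraries and 220.3, 242 and 219 CPM in the control libraries, and no 2 groups overlapped. Auxilin changed on the log2 scale by -3.73 ± 0.26, adjusted p = 2.59e-05 in MycT58A against control, -2.22 ± 0.25, adjusted p = 0.000169 in EV against control and -1.51 ± 0.24, adjusted p = 0.0144 in MycT58A against EV.

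Dnajc27, a small GTPase with a J domain, had 18, 15.1 and 17.3 CPM in MycT58A, 12.5, 13.4 and 9.53 CPM in EV and 107, 144 and 134 CPM in control, with both tumour groups far below control. Against control its log2 fold change was -2.93 ± 0.21, adjusted p = 2.98e-05 in MycT58A and -3.44 ± 0.22, adjusted p = 2.14e-05 in EV. Dnajc5 encodes the cysteine string protein of synaptic vesicles and had 152, 140.5 and 147 CPM in MycT58A, 109.8, 171 and 138 CPM in EV and 514, 459 and 468 CPM in control. Against control the log2 fold change of Dnajc5 was -1.71 ± 0.20, adjusted p = 0.000173 in MycT58A and -1.78 ± 0.20, adjusted p = 0.000175 in EV, and the tumour groups overlapped. Dnajc12, a partner of the aromatic amino acid hydroxylases, and Dnajc16, a J-domain protein of the ER membrane, fell in both tumour groups as well, as did Dnajc4 and Dnajc30. The call of Dnajc30 was lost in MycT58A when any control or MycT58A library was left out and in EV without control replicate 1 or 3. Dnajc18 was called lower in MycT58A against control and not in EV against control, and the difference between the tumour groups did not pass. These falls went with lower sums of neuron markers, given above, and of other brain cell markers. The 4 oligodendrocyte markers summed to 23.2 to 573 CPM in MycT58A, 46.7 to 229 CPM in EV and 2205 to 4494 CPM in control, and the 4 astrocyte markers to 152 to 409 CPM in MycT58A, 253 to 541 CPM in EV and 2535 to 3266 CPM in control. The part of these cells in the falls was not tested.

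The rises in the C series were of other kinds. Dnajc2 (MPP11) works on nascent chains at the ribosome with the atypical HSP70 Hspa14. Dnajc2 had 186, 171 and 171 CPM in MycT58A, 92.5, 49.1 and 202 CPM in EV and 32.6, 24.3 and 31.8 CPM in control, with EV replicate 3 above every MycT58A library and EV replicate 2 nearest to control. It was higher by 2.57 ± 0.46 in MycT58A and 1.95 ± 0.45 in EV on the log2 scale (adjusted p = 0.0014 and 0.00598), and the value in EV was 1.29 without EV replicate 3. Its partner Hspa14 had 97.1, 74.8 and 97 CPM in MycT58A, 77.8, 42.7 and 87 CPM in EV and 51, 46.3 and 61.7 CPM in control and was higher in MycT58A than in control by 0.76 ± 0.28 (adjusted p = 0.0398), a call lost without any of the controls or without MycT58A replicate 1 or 3.

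Dnajc25 had 12.6, 10.9 and 13.9 CPM in MycT58A, 9.01, 10.8 and 10.8 CPM in EV and 1.72, 2.61 and 2.15 CPM in control, with every tumour library above every control. It was higher by 2.53 ± 0.28 in MycT58A and 2.24 ± 0.28 in EV on the log2 scale (adjusted p = 0.000144 and 0.000291). Dnajc1, an ER membrane protein, was higher in both, by 1.27 in MycT58A and 1.85 in EV. So were Dnajc9, a histone chaperone, Dnajc13, an endosomal protein, and Dnajc17, a splicing protein. The call of Dnajc17 in EV was lost without control replicate 2 or 3, EV replicate 3 or MycT58A replicate 1. That of Dnajc9 in MycT58A was lost without control replicate 1 or 2. Dnajc8, a splicing protein with the highest mean level per length of the C series, had 143, 142 and 118 CPM in MycT58A, 119, 111 and 85.2 CPM in EV and 84.1, 76.5 and 86.2 CPM in control and was higher in MycT58A than in control by 0.71 ± 0.18 (adjusted p = 0.00839). Dnajc22 was higher in EV at a low level, with 1.23, 1.1 and 2.38 CPM in EV and 0.123, 0.133 and 0 CPM in control.

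The largest falls in the A and B series were of Dnaja4 and Dnajb2 among members above 5 CPM. Dnajb2 (HSJ1), enriched in neurons, had 12.2, 13.3 and 14.9 CPM in the MycT58A libraries, 16.4, 37.3 and 16.8 CPM in the EV libraries and 130.4, 137 and 129.8 CPM in the control libraries, and no tumour library came near control. Against control its log2 fold change was -3.30 ± 0.34, adjusted p = 0.000104 in MycT58A and -2.49 ± 0.33, adjusted p = 0.000388 in EV. Dnaja4 had 2.19, 1.67 and 3.24 CPM in MycT58A, 3.19, 15 and 5.16 CPM in EV and 44.5, 40.7 and 43 CPM in control, again with control above all tumour libraries. Its log2 fold change was -4.17 ± 0.60, adjusted p = 0.00046 in MycT58A against control and -2.46 ± 0.55, adjusted p = 0.00535 in EV against control, the second at -3.36 without EV replicate 2. Its exons overlap those of Wdr61, with 42.7% of its 50-base stretches shared.

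Dnajb4, Dnajb5 and Dnajb14 were also lower in both tumour groups. Dnaja2, a general partner of HSC70, had 405, 340.4 and 388 CPM in MycT58A, 133, 184 and 309 CPM in EV and 221, 196 and 215 CPM in control, with MycT58A above all others. It was higher in MycT58A than in control by 0.84 ± 0.29 (adjusted p = 0.032), a call lost when any control or MycT58A library was left out. Dnajb1, the main HSP40 partner in the heat shock response, had 66.9, 59.9 and 76.5 CPM in MycT58A, 46.7, 66 and 64.8 CPM in EV and 47.2, 43.7 and 47 CPM in control and was higher in MycT58A than in control by 0.56 ± 0.19 (adjusted p = 0.0303), a call lost without any of the controls or without MycT58A replicate 1 or 3. Dnaja1 and Dnaja3 passed in no comparison.

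Hspa12a, an HSP70 of distant sequence that is abundant in brain, fell furthest of the atypical HSP70 genes. It had 5.94, 2.95 and 4.13 CPM in the MycT58A libraries, 7.5, 15.8 and 0.454 CPM in the EV libraries and 162, 158 and 137 CPM in the control libraries, and EV replicate 3 was the lowest of all libraries. Its log2 fold change was -5.13 ± 0.98, adjusted p = 0.00204 in MycT58A and -4.26 ± 0.94, adjusted p = 0.00502 in EV against control, and -5.21 in EV without EV replicate 2. Hspa13 and Hspa12b were called in no comparison.

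Several small heat shock genes were uneven among the EV libraries. Hspb1 encodes HSP25, known as HSP27 in human, which guards actin and holds unfolded protein. It had 18, 22.9 and 12.7 CPM in the MycT58A libraries, 55.8, 94.9 and 316 CPM in the EV libraries and 7.56, 10.1 and 18.9 CPM in the control libraries, so all EV libraries were above all others and replicate 3 stood far above the other two. Its log2 fold change was 3.67 ± 0.69, adjusted p = 0.0022 in EV against control, -3.12 ± 0.67, adjusted p = 0.0312 in MycT58A against EV and 0.55 ± 0.62, adjusted p = 0.46 in MycT58A against control. Without EV replicate 3 the values were 2.64 in EV against control and -2.07 in MycT58A against EV. Pseudogenes share 50.1% of its 50-base stretches.

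Markers of other tissues were also uneven among the EV libraries and are given beside these genes. The 3 epithelium markers summed to 1.02 to 1.37 CPM in MycT58A, 16.4, 4.29 and 202.8 CPM in EV and 0.177 to 0.653 CPM in control. The 4 muscle markers summed to 11.8 to 53.1 CPM in MycT58A, 933.9, 230.5 and 33.1 CPM in EV and 29.3 to 55.7 CPM in control. For the 4 pericyte and fibroblast markers the sums were 1123 to 1504 CPM in MycT58A, 1288, 10484 and 6181 CPM in EV and 213 to 245 CPM in control. No marker of these 3 lists was at 0 in all libraries. EV replicate 3 was highest in Hspb1 and in the epithelium markers, and the part of such cells in the result was not tested.

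Hspb6 and Hspb2, small heat shock genes of muscle, followed another order, with EV replicate 2 highest and replicate 3 lowest. The muscle marker sum was also lowest in EV replicate 3 but highest in replicate 1, and a link to muscle cells was not tested. Hspb6 had 41.2, 46.8 and 11 CPM in EV against 11.7, 17 and 10.4 CPM in control, and Hspb2 had 2.57, 5.65 and 0.113 CPM in EV against 0.0817, 0.177 and 0.513 CPM in control. Both were called in EV against control (adjusted p = 0.0418 and 0.0435), and both calls were lost when any library but EV replicate 3 was left out. Cryab, the alpha-B crystallin that lies head to head with Hspb2 and is no member by symbol, had 9.35, 5.07 and 3.92 CPM in MycT58A, 218, 171 and 14.1 CPM in EV and 91.9, 81.5 and 87 CPM in control. By edgeR, Cryab was lower in MycT58A than in EV (log2 fold change -4.46 ± 0.88, adjusted p = 0.0252). DESeq2 also called it lower there, and limma-voom did not. Hspb8, a partner of BAG3 in autophagy, passed in no comparison and had 110.4, 241 and 12.9 CPM in EV. Hspb11 (IFT25), a ciliary transport protein, had 11.7, 13.7 and 12.1 CPM in MycT58A, 8.77, 12.2 and 6.86 CPM in EV and 6.46, 5.72 and 7.65 CPM in control and was higher in MycT58A than in control by 0.92 ± 0.29 (adjusted p = 0.021), lost without control replicate 1 or 2 or MycT58A replicate 2. Hspb3 was at or under 0.103 CPM in every tumour library and at 0.532 to 1.06 CPM in control.

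**Figure D4:**
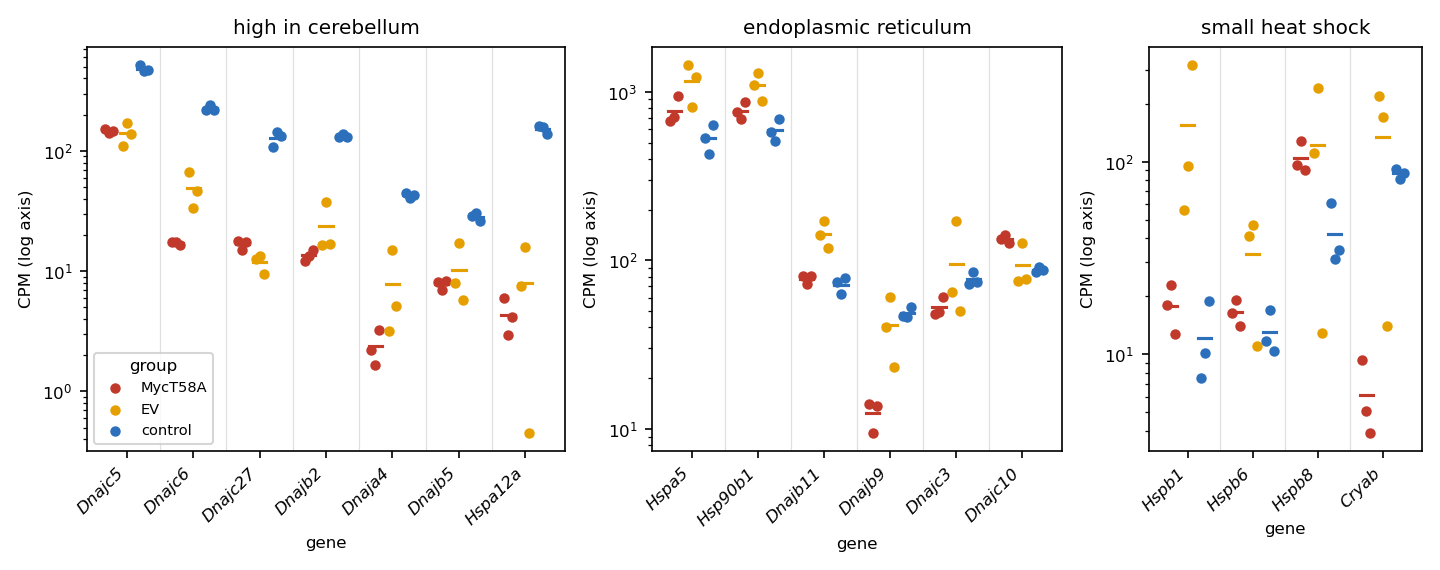
CPM (log axis) of J-domain and atypical HSP70 genes with a high level in cerebellum (left), ER chaperones (middle) and small heat shock genes with Cryab (right), 1 point for each of 3 libraries in MycT58A (red), EV (orange) and control (blue), with a bar at the group mean. Tumour points lie below control on the left. All EV points lie above all others for Dnajb11, Hsp90b1 and Hspb1, EV and MycT58A overlap for Hspa5, and MycT58A is lowest for Dnajb9 and Cryab.

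Between MycT58A and EV, the 6 members called were all lower in MycT58A: Dnajb9, Dnajb11, Dnajc6, Hspa2, Hspa4l and Hspb1. They were 8.11% of the members tested, beside 8.3% of all genes, and belong to 4 roles. No HSP90, mitochondrial or chaperonin gene was among them, which with so few calls is no result about these roles. Dnajc6 had the smallest adjusted p (0.0144) and Hspb1 the largest difference (-3.12 on the log2 scale). Over the members tested, the groups did not overlap for 13 that were higher and 14 that were lower in MycT58A, beside 18.2% and 13.6% of all genes. The members just outside the threshold were Hspb7, a small heat shock gene of heart and muscle (lower in MycT58A, -3.03 ± 0.82, adjusted p = 0.0547, with 9, 58 and 21 counts in all of MycT58A, EV and control), Dnajc7, a J-domain protein with TPR repeats that links HSP70 and HSP90 (higher in MycT58A, 0.55 ± 0.15, adjusted p = 0.0565), and Dnajc22 (lower, -2.50 ± 0.72, adjusted p = 0.0645).

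No call in this comparison held when a MycT58A library was left out, whichever it was, and these fits called 0.232 to 0.451% of all genes. When a control library was left out, that of Dnajc6 alone held, and 2.01 to 2.35% of all genes were called. The spread within EV was wide. The median SD of log2 levels over the members was 0.13 in MycT58A, 0.54 in EV and 0.16 in control, beside 0.18, 0.56 and 0.16 over all genes tested. For 68 of 74 members the SD was larger in EV than in MycT58A (91.9%, beside 86.9% of all genes).

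**Figure D5:**
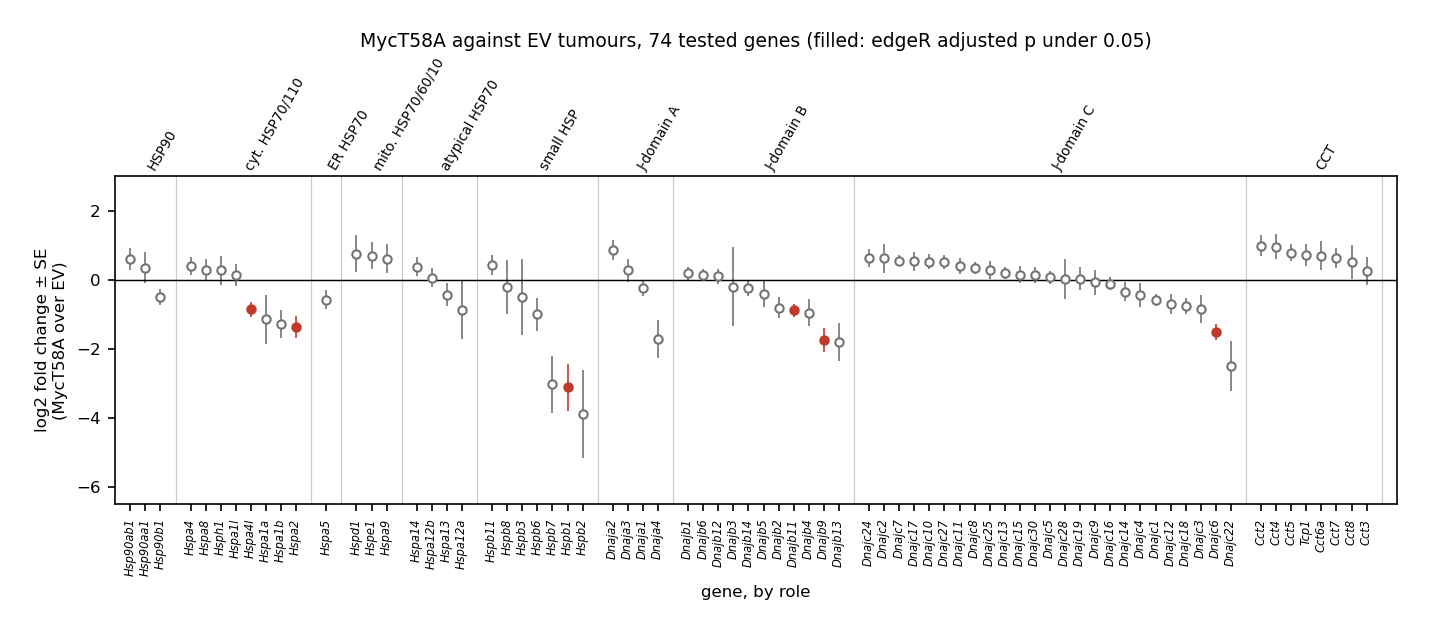
Log2 fold change of MycT58A over EV with its SE (y axis) for each of the 74 tested members, ordered by role (x axis), with 3 libraries in each group. Filled points are the 6 members with an edgeR adjusted p under 0.05, all below 0, and the 8 CCT subunits at the right are above 0 and open.

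In all, 54 members were called in at least 1 comparison and 20 in none. The share of all genes called in at least 1 comparison was not counted, so these totals have no background. Against control, 62.2% of all genes were called in MycT58A and 57% in EV. The 20 included the main constitutive HSP70 gene, Hspa8, and, of the genes that heat is known to induce, Hsp90aa1, Hspa1a and Hsph1, whereas Hspa1b, Dnajb1 and Hspb1, which heat also induces, were each called in at least 1 comparison. Dnaja1, Dnajb6, Hspb8 and the import-motor proteins Dnajc15 and Dnajc19 were also among the 20. A p above the threshold does not show that their levels were equal. The 5 members left out by the low-count filter were Cct6b, Cct8l1, Dnajb7, Dnajb8 and Hspb9, of which Hspb9, a testis-type small heat shock gene, had 17, 28 and 5 counts in all of MycT58A, EV and control.

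Genes that work with the chaperones are given from lists chosen by function. Shares in brackets after the list counts are those called by edgeR in either direction. Of all genes, 62.2% were called in MycT58A against control (31.2% higher and 31% lower) and 57% in EV against control (30.7% and 26.3%). In MycT58A against EV that share was 8.3% (3.28% higher and 5.02% lower). It was 0.232 to 0.451% in fits without 1 of the MycT58A libraries. Calls of single list genes between the tumour groups are from the edgeR fit of all 9 libraries. Whether each held with a library left out is not given. Of 4 tested heat shock factor genes, Hsf1, the main activator of the heat shock response, had 56.1, 51.5 and 57.9 CPM in MycT58A, 52.5, 29.5 and 44.6 CPM in EV and 29.3, 26.8 and 31.5 CPM in control and was higher in MycT58A than in control by 0.92 ± 0.23 on the log2 scale (adjusted p = 0.00765). Hsf4, a factor known from the lens, had 0.54, 0.177 and 0.639 CPM in MycT58A, 4.45, 2.85 and 1.19 CPM in EV and 10.6, 6.96 and 7.75 CPM in control, and its log2 fold change was -4.21 ± 0.66, adjusted p = 0.000707 in MycT58A against control and -2.65 ± 0.62, adjusted p = 0.0397 in MycT58A against EV. Of 22 cochaperones of HSP90 and HSP70, 10 were higher and 3 lower in MycT58A against control (59.1%), and 9 and 4 in EV (59.1%). Fkbp5, the HSP90 cochaperone that glucocorticoid induces, had the largest rise of these, with 81, 86.2 and 79.2 CPM in MycT58A, 174, 48.8 and 72.3 CPM in EV and 7.31, 7.58 and 7.51 CPM in control and a rise of 3.46 ± 0.44 in MycT58A and 3.72 ± 0.45 in EV on the log2 scale (adjusted p = 0.000271 and 0.000246). None of the 22 was called by edgeR in MycT58A against EV, where 4 were higher at an unadjusted p under 0.05, and 2 by DESeq2 and 0 by limma-voom at an adjusted one. Hsbp1l1, named for its likeness to the HSF1-binding HSBP1, was lower in both tumour groups (adjusted p = 0.000146 in MycT58A and 0.000105 in EV), at or under 0.144 CPM in every tumour library and at 1.86 to 2.71 CPM in control.

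Of 11 nucleotide exchange factors, 2 were higher and 1 lower in MycT58A against control (27.3%), and 3 and 2 in EV (45.5%). Hyou1, the large HSP70 of the ER that exchanges nucleotide on BiP, was higher by 1.56 ± 0.20 in MycT58A and 1.79 ± 0.20 in EV on the log2 scale. Bag4, an exchange factor of HSP70, had 85.5, 87.5 and 99.6 CPM in MycT58A, 30.6, 46 and 54.7 CPM in EV and 74.7, 85 and 74.3 CPM in control and was higher in MycT58A than in EV by 1.06 ± 0.22 (adjusted p = 0.0309). Of 15 tested prefoldin and other CCT partner or client genes, 8 were higher in MycT58A against control (53.3%), and 9 were higher and 1 lower in EV (66.7%). Among them Uri1, a prefoldin-like protein, was higher in MycT58A than in EV by 0.87 ± 0.17 (adjusted p = 0.0261), and the CCT client Tubb5, a beta-tubulin, was higher than in control by 2.91 ± 0.27 in MycT58A and 2.25 ± 0.26 in EV.

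Of 22 ER folding and unfolded protein response genes, 13 were higher and 3 lower in MycT58A against control (72.7%), and 12 and 2 in EV (63.6%). None was called in MycT58A against EV, where 2 were higher and 2 lower at an unadjusted p under 0.05. With an adjusted p, 1 was higher and 2 were lower by DESeq2 and 1 was lower by limma-voom. Serpinh1 (HSP47), the chaperone of collagen, was higher by 4.43 ± 0.30 in MycT58A and 4.87 ± 0.31 in EV on the log2 scale, beside the pericyte and fibroblast sums given above. P4hb, a protein disulphide isomerase, was higher by 2.18 ± 0.18 in MycT58A and 2.58 ± 0.19 in EV.

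Of 15 mitochondrial chaperone, import and protease genes, 7 were higher in MycT58A against control (46.7%) and 5 in EV (33.3%). Here 2 were higher in MycT58A than in EV, the import receptor Tomm20 (1.09 ± 0.19, adjusted p = 0.0183) and Timm44, which anchors mortalin at the inner membrane (1.09 ± 0.28, adjusted p = 0.0491). Tomm20 had 682, 677 and 564 CPM in MycT58A, 270.1, 272 and 359.9 CPM in EV and 311, 317 and 284 CPM in control, so MycT58A lay above both other groups. All 7 proliferation genes were higher in both tumour groups than in control, Cdk1 with 159.7, 142 and 154 CPM in MycT58A, 105, 28.5 and 62 CPM in EV and 0.531, 0.62 and 2.43 CPM in control, and Mcm5, a replication helicase subunit, was among the 2 called in MycT58A against EV (1.65 ± 0.31, adjusted p = 0.0226). Of 8 immediate early genes, which tissue handling can raise, 3 were higher and 1 lower in MycT58A against control (50%) and 3 were higher in EV (37.5%). Among the higher ones were Junb (1.56 ± 0.37 in MycT58A and 2.53 ± 0.38 in EV on the log2 scale) and Atf3 (1.80 ± 0.47 and 2.31 ± 0.47). None of the 8 was called by edgeR in MycT58A against EV, where 2 were lower at an unadjusted p under 0.05 and DESeq2 and limma-voom called 0.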

How the data were processed

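Whole-number counts, 1 per gene symbol, were deposited by the authors. The submitters' processing notes name bcl2fastq, TopHat, edgeR and build mm10. The sources used here do not give tool versions, the read counter, the annotation or the use of strand, and reads of overlapping or near-identical genes may be split or misassigned. Per the labels' protocols, RNA came from microdissected pieces. Groups were read from the genotype and source labels, and no libraries were paired.

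Genes were filtered with filterByExpr of edgeR 4.0.16 in R 4.3.3 (minimum count 10, minimum total 15), scaled by TMM and fitted with 1 mean per group in all 9 libraries (glmQLFit, glmQLFTest, 6 residual degrees of freedom). Benjamini-Hochberg adjustment ran over 15171 genes. The SE was taken as the log2 fold change divided by the square root of F. RPKM used GENCODE vM21 exon lengths, and promoter windows came from RefSeq (GRCm38.p6). DESeq2 1.42.0, limma 3.58.1, other scalings and filters and leaving out each library were alternatives. The fit was tested on simulated counts. Members and lists were chosen with earlier results of these data known.

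Values in every library are given for members called between the tumour groups, for Myc, and in each role for the member of highest mean RPKM and for the called members of largest rise and fall against control that reached 5 CPM in the higher group. From each list of partner genes, the 2 of smallest p are named. Other genes are named for their role, after their values were seen.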

Additional observations from a re-analysis of the deposited data

Results flagged for a closer look

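For 6 members the difference from control was not the same in MycT58A and EV tumours by a direct test of the tumour groups (edgeR, adjusted p under 0.05), each lower in MycT58A. On the log2 scale the differences were -0.88 for Dnajb11 and -1.74 for Dnajb9, J-domain partners of BiP, and -1.51 for Dnajc6 (auxilin). They were -1.37 for Hspa2, -0.86 for the HSP110 gene Hspa4l and -3.12 for Hspb1. In all 6, each MycT58A library lay below each EV library. Against control the members differed in kind. Dnajc6 and Hspa4l were below control in both tumour groups and lower in MycT58A, Dnajb9 and Hspa2 were below control in MycT58A while EV overlapped control, and Dnajb11 and Hspb1 were above control in EV while MycT58A overlapped control. Each call was lost when any 1 of the MycT58A libraries was left out, and all but that of Dnajc6 when any 1 of the control libraries was. Those fits called 0.232 to 0.451% and 2.01 to 2.35% of all genes, beside 8.3% in the fit of all libraries.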

How the results depend on the processing

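Members higher in MycT58A than in EV numbered 0 in the edgeR fit, 4 by DESeq2, 1 by limma-voom and 0 to 9 with 1 library left out (9 without EV replicate 3). Members lower there numbered 6, against 14 by DESeq2, 3 by limma-voom with group weights, 0 in a fit of the 2 groups alone and 0 to 17 with 1 library left out (17 without EV replicate 3, 0 without any 1 MycT58A library). In this comparison edgeR called 8.3% of all genes, DESeq2 22.7%, limma-voom 9.97% and 2.96% with group weights, the fit of the 2 groups alone 0.24%, and those without EV replicate 3 25.7% and without a MycT58A library 0.232 to 0.451%. Members higher than control numbered 26 in MycT58A (17 to 30 with 1 library left out, 17 without control replicate 1 or 2) and 24 in EV (13 to 30, 13 without control replicate 2). Calls held under all 17 alternatives for 35 of 46 members in MycT58A against control, 28 of 41 in EV against control and 0 of 6 between tumours. Scaling by library size alone put the median of all genes in MycT58A against EV at -0.17, beside -0.04 with TMM. A level under 0.103 to 0.17 CPM, 3 counts in a library, is below what this depth shows. No paired analysis was possible because the labels give no replicate numbers shared between groups.

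Some log2 fold changes that were not called changed sign. In EV against control, Dnaja2 was 0.0377 by library size alone, 0.0852 with no low-count filter, 0.0349 with 1 CPM in all libraries of a group, 0.0024 in a fit of the 2 groups alone and -0.39 to 0.228 with 1 library left out. Under the same settings Tomm20 was 0.0265, 0.0829, 0.0304, 0.0018 and -0.14 to 0.0585. Hspa2 was 0.0063 with no filter and -0.20 to 0.031 with 1 library left out, Dnajb9 was -0.61 to 0.0653, and Cryab was -0.0342 by limma-voom and -0.0141 with group weights. In MycT58A against control, Hspa1b was -0.0079 by RLE scaling, -0.0427 by library size alone, -0.0085 by DESeq2 and -0.10 to 0.24 with 1 library left out. In MycT58A against EV with 1 library left out, Cct3 was -0.13 to 0.61, Fkbp5 -0.58 to 0.45 and Hspa12a -1.42 to 0.0805. The cause was not tested.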
